A study of Mus musculus with 18 samples.

Results

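The genes described here encode basic helix-loop-helix (bHLH) transcription factors and their partners, measured along the rostrocaudal axis of the embryonic mouse neocortex. They were picked by a rule on symbols that used no measured value, though earlier results of these data were known when the members were chosen. The set holds the proneural factors of the Neurog, Ascl and Atoh families, the Neurod and Nhlh factors, the Hes and Hey repressors, the Id inhibitors Id1, Id3 and Id4, the E proteins Tcf3, Tcf4 and Tcf12, the Olig and Bhlhe factors, 8 bHLH factors of mesoderm and blood, and the Myc network. The rule found 49 genes with 50 probes among the 21766 probes of the array that were not control spots. Of the 49 genes, 48 could be tested, among 18525 features in all, and 40 had a value on every array. Ascl4 had values on only 7 arrays and was not tested. The set is thus wider than neurogenesis, since Hand1, Hand2, Tal1, Tal2, Twist1, Twist2, Tcf15 and Tcf21 are best known from heart, blood, limb and muscle precursors, and the Myc network from cell growth.

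The tissue was neocortex of MF1 mice, an outbred stock, at E13.5 (embryonic stage), with no treatment or mutant allele named in the labels. It was divided into rostral, middle and caudal parts, with 3 pools of each region, and 4 embryos are given as its source. RNA of the 9 pools was set against each other on 18 arrays with 2 dyes. Every pool appeared 4 times, equally often in Cy3 and Cy5, and 6 arrays compared any given 2 regions. Whether the pools of a region were from different embryos is not in the labels, and p-values therefore cover only how far these pools differed, for technical or biological reasons.

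During cortical neurogenesis, progenitors that express proneural bHLH factors present Delta ligands to their neighbours, in which Notch receptors act through the DNA-binding protein RBPJ to switch on Hes and Hey repressors. These repressors in turn keep proneural genes low and the cell in the progenitor state. Proneural factors bind E-box sites as dimers with E proteins, and Id proteins, which lack the basic domain that contacts DNA, block such dimers by sequestering the E proteins. Neurod and Nhlh factors act after the proneural factors, in cells that have committed to become neurons.

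Promoters of 37 of the 49 genes were found in a RefSeq table (build GRCm38.p6, from 250 bases before to 50 bases after the start of the gene), and both strands were searched for 3 short motifs. The core of the RBPJ site, TGGGAA, was in the promoters of 11 of the 37 genes (29.7%) and in 25.6% of all 32851 promoters in the table. The general E-box, CANNTG, was in 26 of the 37 (70.3%) against 72.3% of all promoters. The N-box bound by Hes repressors, CACNAG, was in 17 of the 37 (45.9%) against 42.5%. The share of each motif among these 37 genes was thus within 5 percentage points of its share among all promoters. Each bHLH gene was counted by 1 promoter, whereas the table holds several for some genes. Genes without a promoter there included Hes1, Hes2, Hes3, Hey1, Heyl, Id1, Tcf4 and Olig1. Among the other Hes and Hey genes, Hes5, Hes7 and Hey2 held an RBPJ core in the promoter used and Hes6 did not. The promoter of Hes5, which is a classical target of Notch, is shown for its pair of RBPJ cores, which are in capitals, 1 on each strand. The promoters of Neurod1 and Neurod6 are shown because these related differentiation genes had differences of opposite sign between the ends of the axis. Their E-boxes, 1 in Neurod1 and 2 in Neurod6, are in capitals. Hes5 lies at chr4:154960673-154960972 on the plus strand, Neurod1 at chr2:79456587-79456886 on the minus strand and Neurod6 at chr6:55681214-55681513 on the minus strand, and each is written 5′ to 3′ along its gene. The capitals in these 3 windows overlap no other match of the 3 motifs.
Hes5: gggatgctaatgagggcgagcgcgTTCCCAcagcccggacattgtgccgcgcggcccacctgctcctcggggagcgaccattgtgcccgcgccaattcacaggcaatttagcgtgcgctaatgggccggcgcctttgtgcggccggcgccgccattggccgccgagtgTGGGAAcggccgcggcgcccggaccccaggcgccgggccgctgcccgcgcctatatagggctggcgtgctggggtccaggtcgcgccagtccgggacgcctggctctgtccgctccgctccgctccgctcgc
Neurod1: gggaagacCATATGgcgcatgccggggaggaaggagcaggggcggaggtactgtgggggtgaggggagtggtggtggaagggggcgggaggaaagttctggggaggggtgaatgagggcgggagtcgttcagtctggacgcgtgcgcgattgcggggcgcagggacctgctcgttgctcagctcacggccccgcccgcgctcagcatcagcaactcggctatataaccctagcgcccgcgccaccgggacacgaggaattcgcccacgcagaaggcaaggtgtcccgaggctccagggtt
Neurod6: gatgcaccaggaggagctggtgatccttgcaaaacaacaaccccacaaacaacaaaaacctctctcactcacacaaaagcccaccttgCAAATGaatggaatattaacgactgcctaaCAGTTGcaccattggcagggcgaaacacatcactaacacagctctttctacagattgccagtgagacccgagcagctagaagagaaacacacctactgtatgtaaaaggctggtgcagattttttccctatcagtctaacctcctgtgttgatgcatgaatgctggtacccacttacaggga
The RBPJ cores of Hes5 began 226 and 82 bases before the start site, the E-box of Neurod1 242 bases before it, and those of Neurod6 162 and 132 bases before it. A match describes the letters of the window and is not by itself a bound site.

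Ratios have no level of their own, so each gene is given by its pool values on the log2 scale relative to the mean of the 9 pools, and the presence of a cell type could not be checked from an absolute level. A positive difference means higher values in the first-named region, and the standard error follows each difference. The direction of the ratio is likely, not stated: with Cy5 over Cy3, Nr2f1, a nuclear receptor gene known to be high caudally, had a rostral-minus-caudal difference of -1.02 ± 0.07 (limma adjusted p = 0.0138), and Etv1, a target of rostral FGF signalling, had 0.80 ± 0.07 (limma adjusted p = 0.0272). An array gave between 18085 and 20693 values beside control spots and capped ratios. A gene is said to pass at an adjusted p under 0.05 over all 18525 features in limma's test. In these tissue pools fewer cells of a type and less RNA per cell cannot be told apart.

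No bHLH gene passed in any comparison. Between the ends of the axis 0 of 48 passed in limma, against 0.0648% of all features (12 of 18525), and 8 had an unadjusted p under 0.05, against 7.9% of all features. Of the 8, 3 had higher rostral values (4.17% of features) and 5 higher caudal values (3.74% of features). The 8 were Hey1, Neurod6, Id3, Tcf4, Neurod1, Olig1, Neurod4 and Hes6. This number was 4 without rostral replicate 2 or caudal replicate 2 and 5 without rostral replicate 3 or caudal replicate 3. The rostral and caudal pools did not overlap in 10 of the 48 genes, against 12.1% of features, with rostral pools higher in 5 (6.22% of features) and lower in 5 (5.89%). All 6 arrays that joined the ends lay on the same side of 0 in 7 of the 42 genes measured on each of them, against 9.91% of features. In such counts the ratios of single arrays keep the dye term, which is taken off the pool values. Differences of the bHLH genes were small: their median size was 0.0676 against 0.1029 over all features, and 0% of them exceeded 0.5 in size against 7.6% of features. Such sizes include noise, which was also lower for the bHLH genes. Their median residual SD between pools was 0.118, against 0.151 over all features. The plot of all differences by role shows these small differences together with the wide intervals of a few genes.

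**Figure D1:**
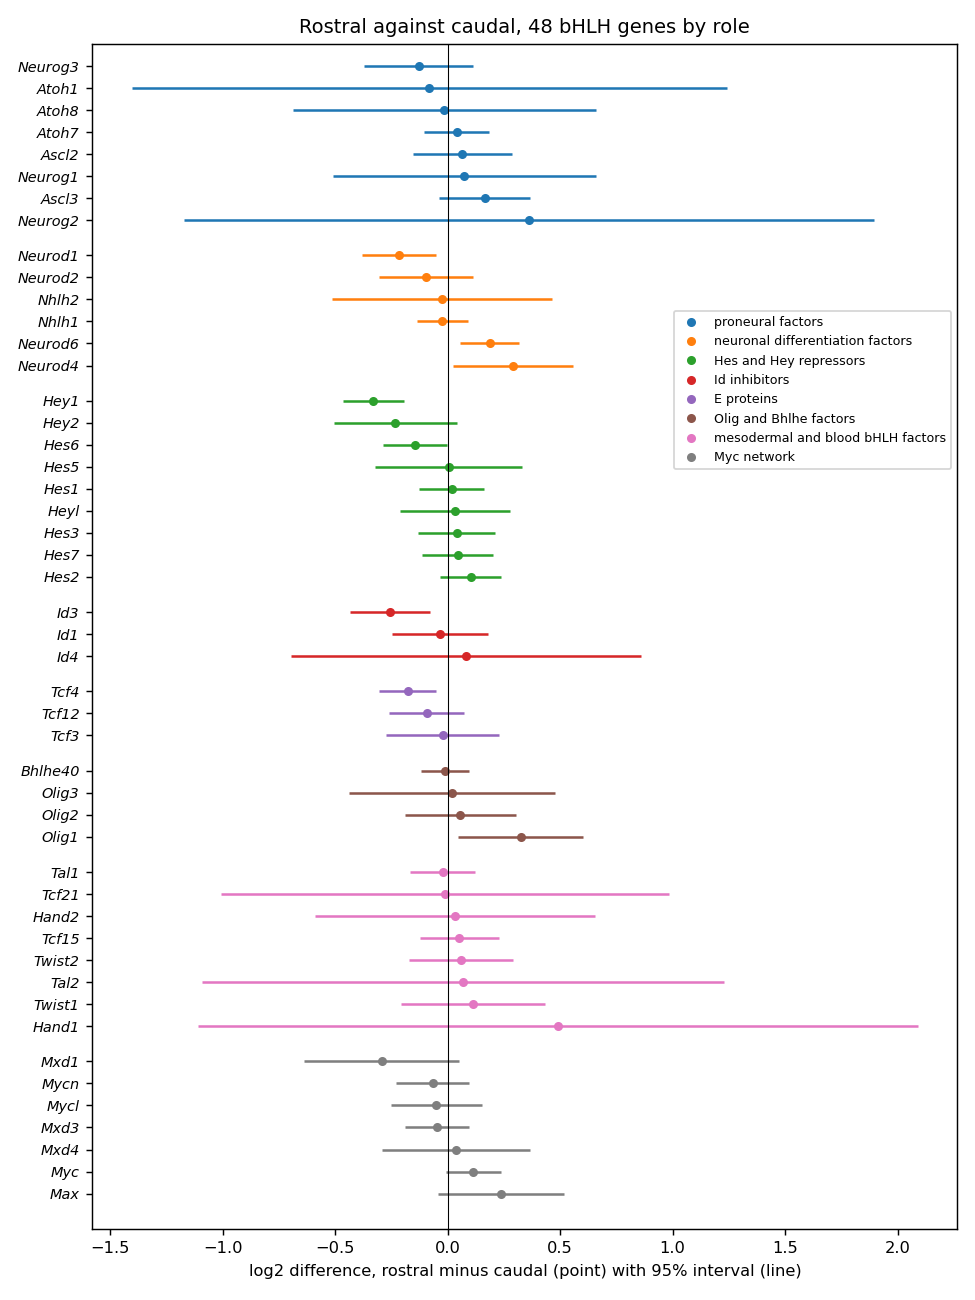
The log2 difference between rostral and caudal pools (horizontal axis, rostral minus caudal) is drawn for each of the 48 tested bHLH genes as a point with its 95% interval from limma (3 pools per region), coloured by role. Hey1 has the interval farthest from 0 on the negative side (-0.46 to -0.20), and Neurog2, Atoh1, Hand1 and Tal2 have the widest intervals.

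The Hes and Hey repressors, which carry out the Notch response, gave the bHLH gene with the lowest p-value. Hey1 was at -0.17, -0.15 and -0.25 in rostral replicates 1 to 3, at 0.06, 0.07 and 0.00 in the middle replicates and at 0.09, 0.11 and 0.22 in the caudal replicates. Every rostral pool lay below every middle pool, and every middle pool below every caudal pool. The rostral-minus-caudal difference was -0.33 ± 0.06, or 1.26-fold lower in rostral pools, with a 95% interval from -0.46 to -0.20 (limma unadjusted p = 0.00061, adjusted p = 0.156). This ranked 70 among the 18525 features by p-value. Rostral against middle gave -0.24 ± 0.06 (limma unadjusted p = 0.00411, adjusted p = 0.602), and middle against caudal -0.09 ± 0.06 (limma unadjusted p = 0.146, adjusted p = 0.995). The 2 steps were not tested against each other.

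The single arrays showed the same ordering for Hey1. The 6 arrays with a rostral and a caudal pool gave rostral-over-caudal ratios of -0.155, -0.372, -0.467, -0.362, -0.300 and -0.352. Rostral over middle was between -0.394 and -0.044 on 6 arrays, and middle over caudal between -0.122 and -0.054 on 6 arrays. Hey1 was lower in the rostral pool on all 12 arrays that carried one, which held for 1.78% of the 13565 features measured on all of them. Arrays that share a pool are not independent. In both dye orientations the ratios lay on the same side of 0.

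**Figure D2:**
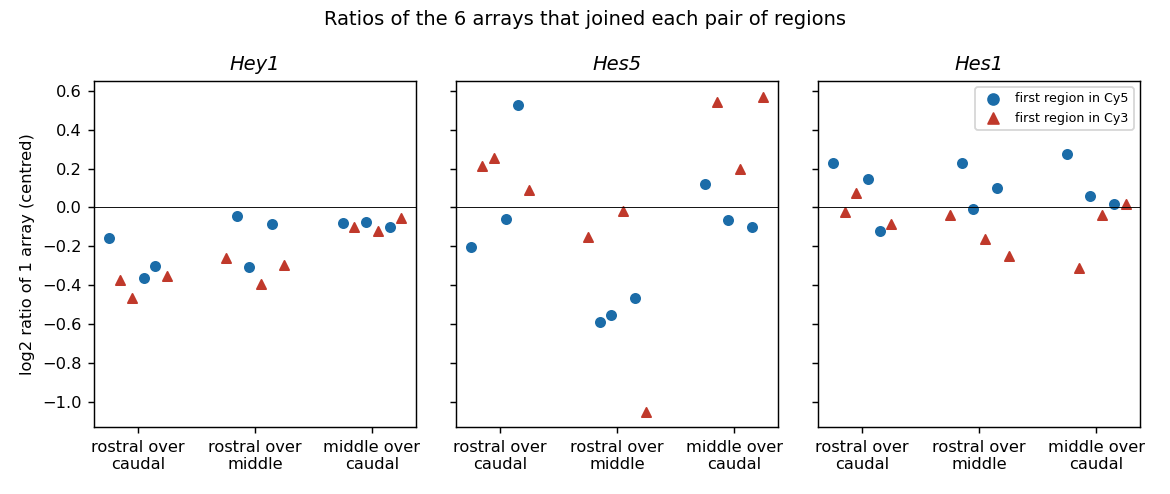
Centred log2 ratios of single arrays (vertical axis) are plotted for Hey1, Hes5 and Hes1, with the 6 arrays of each pair of regions side by side, circles where the first-named region was in Cy5 and triangles where it was in Cy3. All 18 Hey1 ratios are below 0, the Hes5 ratios of rostral over middle run from -1.052 to -0.017, and the Hes1 ratios lie on both sides of 0 for each pair.

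Control spots also differed between rostral and middle pools. Medians were taken over those of the 232 Gapdh control spots that met the minimum of arrays. They were -0.0899, -0.0396 and -0.1513 in the rostral pools and 0.0683, 0.0856 and 0.0781 in the middle pools, without overlap. The caudal pools, at -0.1397, 0.0328 and 0.1458, ran from within the rostral range to above the middle range. With these spots as a covariate Hey1 was at -0.28 for rostral against caudal (limma unadjusted p = 0.00189) and at -0.15 for rostral against middle (limma unadjusted p = 0.0536). Hey1 is also a Notch target in blood vessels. Of 8 endothelial markers, 6 were below 0 in rostral against caudal, with a median of -0.07 and 0 of 8 at an unadjusted p under 0.05, against 7.9% of features. In rostral against middle 6 of the 8 were also below 0, with a median of -0.02. There 1, the tight junction gene Cldn5, had an unadjusted p under 0.05, against 5.25% of features (-0.22 ± 0.07, limma unadjusted p = 0.0134). The endothelial median ran from -0.06 to 0.05 over rostral pools, from 0.02 to 0.05 over middle pools and from -0.04 to 0.05 over caudal pools, so the regions overlapped. The part of vessels in the Hey1 result was not tested.

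Hes5, the Notch target whose promoter is printed above, had its higher values in the middle region. It was at -0.33, -0.06 and 0.06 in rostral replicates 1 to 3, at 0.14, 0.37 and 0.18 in the middle replicates and at 0.04, -0.35 and -0.05 in the caudal replicates. Each middle pool lay above all rostral and caudal pools, while rostral and caudal pools covered the same range. Rostral against middle gave -0.34 ± 0.14 (limma unadjusted p = 0.0438, adjusted p = 0.938) and middle against caudal 0.34 ± 0.14 (limma unadjusted p = 0.0419, adjusted p = 0.995), whereas the ends differed by 0.00 (95% interval -0.32 to 0.33). Without rostral replicate 1 rostral against middle was -0.20 (limma unadjusted p = 0.154). Middle against the mean of the ends was 0.34 ± 0.12 (limma unadjusted p = 0.0245). The residual SD of Hes5 between arrays was 0.308, against a median of 0.256 over all features, and its rostral-over-middle ratios were below 0 on all 6 arrays that joined these regions.

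Hes1, the repressor most used as a readout of Notch in progenitors, showed no regional difference at this precision. It was at 0.01, 0.09 and -0.09 in rostral replicates 1 to 3, at 0.01, 0.06 and -0.04 in the middle replicates and at 0.03, -0.06 and -0.01 in the caudal replicates. The regions overlapped fully, and the 95% interval of the rostral-minus-caudal difference, from -0.13 to 0.16, leaves room only for a small one. Hes6, which promotes neuronal differentiation by opposing Hes1, was at -0.03, -0.09 and -0.16 in rostral replicates, at 0.00, 0.04 and 0.09 in middle replicates and at -0.03, 0.06 and 0.11 in caudal replicates. Its rostral pools lay below all other pools, with rostral replicate 1 only just below caudal replicate 1. Rostral minus caudal was -0.14 ± 0.06 (limma unadjusted p = 0.0484, adjusted p = 0.624) and that of rostral against middle -0.14 ± 0.06 (limma unadjusted p = 0.0545).

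Of the 9 Hes and Hey genes, 3 were below 0 and 6 above in rostral against caudal, with a median of 0.02 against 0.00 over all features. Hey2, a close relative of Hey1, had -0.23 ± 0.12 (95% interval -0.50 to 0.04), and its pools overlapped. Hes2, Hes3, Hes7 and Heyl lay between 0.03 and 0.10, and only in Hes2 did the rostral and caudal pools not overlap. In rostral against middle 7 of the 9 were below 0, with a median of -0.06. The repressors thus did not share a direction between the ends of the axis.

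**Figure D3:**
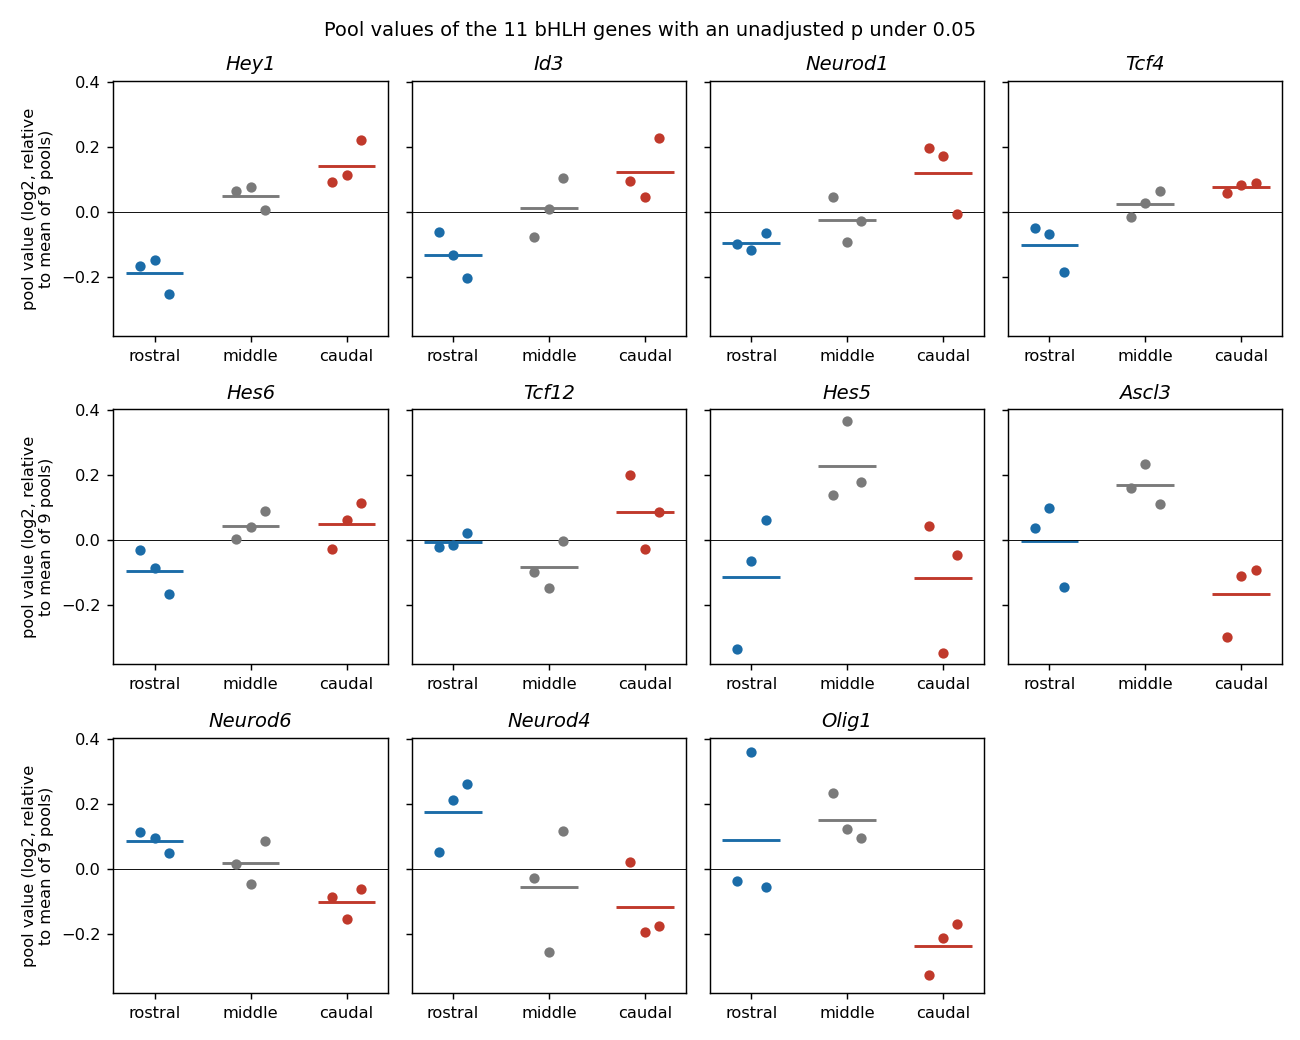
Pool values (vertical axis, log2 relative to the mean of the 9 pools) are plotted for the 11 bHLH genes with an unadjusted limma p under 0.05 in a pairwise comparison, with 3 pools per region as points in the order of their numbers and the region mean as a line. Hey1, Id3, Tcf4 and Neurod1 have lower rostral than caudal values, and Neurod6 and Neurod4 the opposite. Hes5, Ascl3 and Olig1 have their highest mean in the middle region.

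The neuronal differentiation factors had values of both signs. Neurod1, which follows the neurogenins in newly committed cortical cells, was at -0.10, -0.12 and -0.07 in rostral replicates 1 to 3, at 0.05, -0.09 and -0.03 in the middle replicates and at 0.20, 0.17 and -0.01 in the caudal replicates. Its rostral pools lay below the caudal pools, although caudal replicate 3 sat among the middle pools. The difference between the ends was -0.22 ± 0.07 (95% interval -0.38 to -0.05, limma unadjusted p = 0.0167, adjusted p = 0.437). Neurod1 was lower in the rostral pool on all 6 rostral-caudal arrays.

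Neurod6, which marks postmitotic pyramidal neurons, had the opposite sign. It was at 0.11, 0.09 and 0.05 in rostral replicates 1 to 3, at 0.01, -0.05 and 0.09 in the middle replicates and at -0.09, -0.16 and -0.06 in the caudal replicates. Caudal pools lay below every other pool, and rostral and middle pools overlapped. The ends differed by 0.19 ± 0.06, or 1.14-fold higher in rostral pools (95% interval 0.06 to 0.32, limma unadjusted p = 0.0111, adjusted p = 0.375). With Hey1 it was the only bHLH gene to lie on the same side on all 12 arrays that carried a rostral pool (2 of 40 genes, against 2.79% of features), with higher rostral values. Its residual SD between arrays was 0.0641, among the lowest of the bHLH genes.

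Neurod4, a factor of early neuronal commitment, was at 0.05, 0.21 and 0.26 in rostral replicates, at -0.03, -0.26 and 0.12 in middle replicates and at 0.02, -0.20 and -0.18 in caudal replicates. Rostral and caudal pools did not overlap, and the middle pools reached into both ranges. Rostral minus caudal gave 0.29 ± 0.11 (limma unadjusted p = 0.036, adjusted p = 0.566). Neurod2 had -0.10 ± 0.09, Nhlh1 -0.02 ± 0.05 and Nhlh2 -0.02 ± 0.21. Of the 6 differentiation factors, 2 were above 0 and 4 below, with a median of -0.02.

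Among the proneural factors, which select the cells that will become neurons, the neurogenins were measured with little precision. Neurog2, the principal proneural factor of the neocortex, was at 0.44, 0.64 and -0.81 in rostral replicates 1 to 3, at -0.77, -0.19 and 1.50 in the middle replicates and at 0.05, -0.92 and 0.05 in the caudal replicates. The ranges overlapped between all regions, although the highest caudal pool was at 0.05, against 0.64 for the highest rostral and 1.50 for the highest middle pool. The gene had values on 16 of 18 arrays. On the 5 arrays that set rostral directly against caudal pools its log2 ratio of rostral over caudal lay between -0.109 and 0.112. Array 6 gave 3.521 and array 7 gave -2.514 for middle over caudal, and array 8 gave -1.884 and array 10 gave 1.892 for rostral over middle. These 4 arrays each carried a middle pool and stood far from the others. The difference between the ends was 0.36 ± 0.65, and its 95% interval, from -1.17 to 1.90, does not limit the direction. Neurog1 was at -0.24, -0.03 and 0.45 in rostral replicates, at -0.09, 0.21 and -0.26 in middle replicates and at 0.40, -0.37 and -0.07 in caudal replicates, and the regions overlapped. Its difference was 0.07 ± 0.25 (95% interval -0.51 to 0.66). A difference of either neurogenin within its interval was not detectable here.

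The residual SD between arrays was 1.45 for Neurog2 and 0.371 for Neurog1, against a median of 0.256 over all features. Of the 48 bHLH genes, 16 lay above that median and 32 at or below it. The 9 with an SD above 0.5 were Atoh1 (1.65), Neurog2, Hand1, Tal2, Nhlh2, Id4, Atoh8, Mxd1 and Tcf21, and 32.8% of all features lay above that value. The standard error of a difference between regions ran from 0.0454 for Bhlhe40 to 0.681 for Hand1, with a median of 0.0963. Ratios alone do not show how bright these probes were.

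**Figure D4:**
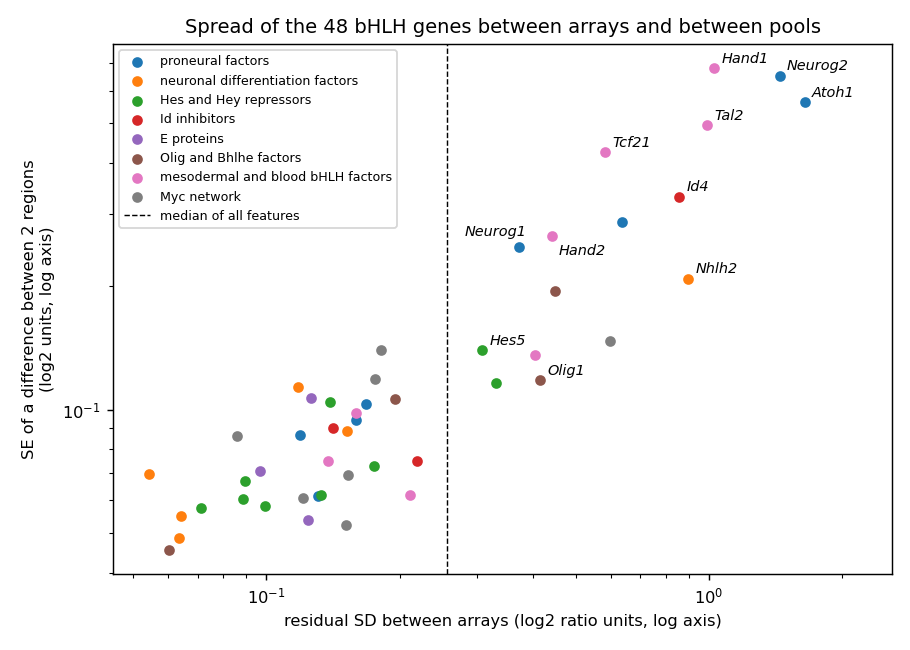
The standard error of a difference between 2 regions (vertical axis) is plotted against the residual SD between arrays (horizontal axis), both in log2 units on log axes, for the 48 tested bHLH genes coloured by role, and the dashed line is the median SD of all features (0.256). Of the genes, 32 lie at or left of the line and 16 right of it, with Hand1, Neurog2, Atoh1 and Tal2 in the upper right corner.

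Ascl3, known from glands rather than the brain, was the proneural relative with the lowest p-value. It was at 0.04, 0.10 and -0.14 in rostral replicates 1 to 3, at 0.16, 0.24 and 0.11 in the middle replicates and at -0.30, -0.11 and -0.09 in the caudal replicates. The middle pools lay above all others, and rostral and caudal pools overlapped. Middle against caudal gave 0.34 ± 0.09 (limma unadjusted p = 0.00566, adjusted p = 0.578). The contrast of the middle with both ends was 0.25 ± 0.08 (limma unadjusted p = 0.011). Of the 8 tested proneural factors, 5 were above 0 and 3 below in rostral against caudal, with a median of 0.05. Apart from Neurog2 they lay between -0.13 for Neurog3 and 0.16 for Ascl3.

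Of the Id inhibitors, which BMP signalling is known to induce, Id3 had the lowest p-value. Id3 was at -0.06, -0.13 and -0.20 in rostral replicates 1 to 3, at -0.08, 0.01 and 0.10 in the middle replicates and at 0.10, 0.05 and 0.23 in the caudal replicates. Rostral and caudal pools did not overlap, and the middle pools reached into both ranges. The difference between the ends was -0.26 ± 0.07, or 1.19-fold lower in rostral pools (95% interval -0.43 to -0.08, limma unadjusted p = 0.0105, adjusted p = 0.373). Its 6 rostral-caudal arrays ran from -0.587 to 0.210, so the array ratios did not all lie on the same side. Unlike the pool values, these ratios keep the dye term, which was -0.19 for Id3.

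Id1 was at 0.09, -0.13 and -0.07 in rostral replicates, at 0.06, 0.01 and 0.08 in middle replicates and at -0.16, 0.13 and 0.01 in caudal replicates. The regions overlapped, with a difference between the ends of -0.03 ± 0.09 (95% interval -0.25 to 0.18). Id4, the third Id inhibitor, was at 0.62, -0.47 and -0.18 in rostral replicates, at -0.21, -0.14 and 0.66 in middle replicates and at -0.29, 0.02 and 0.00 in caudal replicates, with 1 high pool each in the rostral and middle regions. Its difference was 0.08 ± 0.33. Id2, an Id inhibitor gene outside the symbol rule, had 0.09 ± 0.07 between the ends (limma unadjusted p = 0.258). Whether Id3 and Id1 differed from each other was not tested.

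Id genes and Hey1 are also expressed outside the neuroepithelium, and markers of the coverings of the brain had lower rostral than caudal values. All 7 tested markers of meninges and mesenchyme were below 0 in rostral against caudal, with a median of -0.15. An unadjusted p under 0.05 was reached by 3, against 3.74% of features in this direction: Ptgds (-0.66 ± 0.13, limma adjusted p = 0.188), Dcn (-0.39 ± 0.09, limma adjusted p = 0.233) and Lum (-0.33 ± 0.14, limma adjusted p = 0.629). Col3a1 (-0.01 ± 0.05) and Col1a2 (-0.04 ± 0.07) lay near 0. The median of the 7 meningeal and mesenchymal markers ran from -0.14 to 0.00 over the rostral pools, from -0.09 to 0.02 over the middle pools and from 0.01 to 0.15 over the caudal pools. Of the 7 red blood cell markers, 4 were below 0 between the ends and 7 in rostral against middle (median -0.32). In both comparisons 2 of the 7 had an unadjusted p under 0.05, against 7.9% of features between the ends and 5.25% in rostral against middle. Alas2, of haem synthesis, was at -0.32 (limma unadjusted p = 0.00169) and -0.25 (limma unadjusted p = 0.00727), and the embryonic globin gene Hbb-y at -0.33 (limma unadjusted p = 0.0231) and -0.32 (limma unadjusted p = 0.0273). The median of the 7 ran from -0.28 to -0.09 over rostral pools, from 0.04 to 0.15 over middle pools and from -0.09 to 0.16 over caudal pools. The part of these cells in the values of Id3 and Hey1 was not tested.

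The E proteins, the shared partners of the proneural factors, lay below 0 in rostral against caudal in all 3 cases, with a median of -0.09. Tcf4 was at -0.05, -0.07 and -0.18 in rostral replicates 1 to 3, at -0.02, 0.03 and 0.06 in the middle replicates and at 0.06, 0.08 and 0.09 in the caudal replicates. Its rostral pools lay below all middle and caudal pools. The difference between the ends was -0.18 ± 0.05 (95% interval -0.30 to -0.05, limma unadjusted p = 0.0125, adjusted p = 0.389). Another probe of Tcf4, with values on 13 arrays, gave 0.03 ± 0.21 for the same comparison under a looser minimum of arrays, with an error too large to tell the probes apart.

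Tcf12 was at -0.02, -0.02 and 0.02 in rostral replicates, at -0.10, -0.15 and -0.00 in middle replicates and at 0.20, -0.03 and 0.09 in caudal replicates. Middle and caudal pools overlapped in 1 pool, and middle against caudal gave -0.17 ± 0.07 (limma unadjusted p = 0.0468, adjusted p = 0.995). Tcf3, the third E protein, had -0.02 ± 0.11 between the ends.

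Olig1, best known from the oligodendrocyte lineage and ventral progenitors, had its lowest values caudally. It was at -0.04, 0.36 and -0.06 in rostral replicates 1 to 3, at 0.23, 0.12 and 0.09 in the middle replicates and at -0.33, -0.21 and -0.17 in the caudal replicates. All caudal pools lay below all others, and rostral replicate 2 was the highest of the 9. Middle against caudal gave 0.39 ± 0.12 (limma unadjusted p = 0.0128, adjusted p = 0.712) and rostral against caudal 0.32 ± 0.12 (limma unadjusted p = 0.0274, adjusted p = 0.508). The last of these was 0.22 without rostral replicate 2 (limma unadjusted p = 0.0988) and also without middle replicate 2 (limma unadjusted p = 0.253). The 6 rostral-caudal arrays were all above 0, from 0.035 to 0.543, while the 6 rostral-middle arrays ran from -0.941 to 0.654. These array ratios keep the dye term, which was 0.24 for Olig1.

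Olig2, its close relative, had 0.06 ± 0.11 between the ends, Olig3 0.02 ± 0.19 and Bhlhe40 -0.01 ± 0.05. Of 9 tested markers of the ventral telencephalon, 5 were below 0 and 4 above in rostral against caudal, with a median of -0.02. Gsx2, a ventral progenitor gene, had -0.53 ± 0.12 (limma unadjusted p = 0.00278, adjusted p = 0.225), opposite in sign to Olig1. Ventral medians ran from -0.08 to 0.00 over rostral pools, from -0.01 to 0.07 over middle pools and from -0.02 to 0.09 over caudal pools, so they overlapped. The part of ventral tissue in the Olig1 values was not tested.

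The genes of the set that belong to other tissues or to cell growth gave 0 unadjusted p-values under 0.05 among 15 genes in the 3 pairwise comparisons, in which 7.9%, 5.25% and 4.86% of all features had one (rostral against caudal, rostral against middle and middle against caudal). The 8 mesodermal and blood factors lay between -0.02 for Tal1 and 0.49 for Hand1 in rostral against caudal, with a median of 0.06. Mycn, which drives growth of neural progenitors, was at -0.12, 0.03 and -0.04 in rostral replicates, at -0.09, 0.01 and 0.12 in middle replicates and at 0.01, 0.01 and 0.06 in caudal replicates. The regions overlapped, with a difference between the ends of -0.07 ± 0.07 (95% interval -0.23 to 0.10). The 7 genes of the Myc network ran from -0.29 for Mxd1 to 0.24 for Max, with a median of -0.05. In Myc itself rostral pools lay above caudal pools, by 0.12 ± 0.05 (limma unadjusted p = 0.0621).

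Rostral against middle and middle against caudal ask where along the axis such differences lie. In rostral against middle 0 of 48 genes passed (0% of features), and 2, Hey1 and Hes5, had an unadjusted p under 0.05, against 5.25% of features (1 without middle replicate 2, and 3 without rostral replicate 1, middle replicate 1 or caudal replicate 3). Pools of these regions did not overlap in 7 of the 48, against 12.8% of features, and all 6 arrays joining them lay on the same side in 5 of 44 genes, against 8.5%. In middle against caudal 0 of 48 passed (0% of features), and 4, Ascl3, Olig1, Hes5 and Tcf12, had an unadjusted p under 0.05, against 4.86% of features. The 4 became 2 without rostral replicate 2, caudal replicate 1 or 2, or any middle pool. Pools did not overlap in 7 of the 48, against 10.6%, and the 6 arrays lay on the same side in 4 of 43, against 6.11%. The lowest adjusted p of a bHLH gene was 0.602 in the first of these comparisons and 0.578 in the other.

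Middle against the mean of the ends gave 2 genes with an unadjusted p under 0.05, Ascl3 and Hes5 (4.06% of features; 1 without middle replicate 3 or caudal replicate 1, 3 without rostral replicate 3), and 0 that passed (0% of features). The F test for any difference among the 3 regions gave 7 (6.71% of features): Hey1 (limma unadjusted p = 0.00165, adjusted p = 0.291), Ascl3, Olig1, Neurod6, Id3, Tcf4 and Neurod1. It gave 2 without caudal replicate 1, 3 without replicate 2 of any region and 4 without rostral replicate 3. Again 0 passed, against 0.0108% of features. The middle mean lay between the ends in 19 of the 48 genes, against 36.8% of features, above both in 18 (31.6%) and below both in 11 (31.6%).

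The wider Notch pathway, from ligands and receptors to their processing and cofactors, was read from a list of 31 genes, 25 of which were tested. In rostral against caudal 0 passed, 12 were above 0 and 13 below. Only Pofut1, which adds fucose to Notch receptors, had an unadjusted p under 0.05 (0.54 ± 0.20, limma adjusted p = 0.508), as did 7.9% of all features. In rostral against middle 2 did with higher rostral values and 1 with lower, against 5.25% of features in either direction. The ligand gene Dll1 had -0.17 ± 0.07, the Notch antagonist gene Numb 0.17 ± 0.06 and the gamma-secretase gene Ncstn 0.15 ± 0.05 (limma adjusted p from 0.89 to 0.931). In middle against caudal 2 did, against 4.86% of features. Mfng, a glycosyltransferase gene of the pathway, had 0.18 ± 0.05 and the ligand gene Jag2 0.16 ± 0.06 (limma adjusted p = 0.694 and 0.993). The list median was -0.01 between the ends, against 0.00 over all features.

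Reported targets and effectors of proneural factors were read from 29 genes, 26 of them tested. Between the ends 0 passed, and 7 had an unadjusted p under 0.05, 4 with higher rostral and 3 with higher caudal values. Of all features 7.9% did, 4.17% with higher rostral and 3.74% with higher caudal values. Among the 3 was Hes6, a bHLH gene already counted above. Rnd3, a gene of neuronal migration, had the largest rostral value, 0.58 ± 0.07 (limma adjusted p = 0.0619), with 0.38 ± 0.07 in rostral against middle. Rnd2, its relative downstream of Neurog2, had 0.26 ± 0.08 (limma adjusted p = 0.391).

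Genes of newly committed cells had values in both directions. Insm1, a zinc finger factor of intermediate progenitors, had 0.29 ± 0.07 between the ends and 0.39 ± 0.07 in middle against caudal (limma adjusted p = 0.283 and 0.408). Sstr2, a somatostatin receptor gene, had -0.28 ± 0.06 (limma adjusted p = 0.209), and Gadd45g, a stress response gene switched on in neuronal commitment, -0.24 ± 0.07 (limma adjusted p = 0.35). The list median was 0.02. Some of these genes were known from earlier results of the same arrays when the list was written, so its count is no independent evidence.

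A list of BMP pathway genes gave 0 unadjusted p-values under 0.05 among 19 tested genes in rostral against caudal (7.9% of features). Beside ligands, receptors and regulators it held Id2, itself an Id inhibitor gene, and the homeobox genes Msx1 and Msx2. The list is thus not only the upstream side of the Id genes. Of the 19, 8 were above 0 and 11 below, with a median of -0.02. In middle against caudal 1 had such a p-value, against 4.86% of features: the signal transducer gene Smad9 (-0.19 ± 0.07, limma adjusted p = 0.941). Among 9 tested markers of cortical progenitors, the cells in which most Hes and Id genes act, Vim fell by 0.51 from caudal to rostral pools (limma adjusted p = 0.0389), and none of the other 8 passed. The 9 did not share a direction: 3 were above 0 and 6 below, with a median of -0.03. An unadjusted p under 0.05 was reached by 1 with higher rostral values (4.17% of features) and by 3, Vim among them, with lower (3.74%). The former was Slc1a3, at 0.32 ± 0.05 (limma unadjusted p = 0.000569). Beside Vim the latter were Lhx2 (-0.31 ± 0.07, limma unadjusted p = 0.00205) and Emx2 (-0.25 ± 0.08, limma unadjusted p = 0.0158). The Pax6 probe that stood for its gene had 0.31 ± 0.20 (limma unadjusted p = 0.161). Another Pax6 probe had 0.32 ± 0.07 (limma unadjusted p = 0.00172). With middle replicate 1 left out 4 features passed between the ends, and with any other pool left out 0 did, so the calls of Vim, Nr2f1 and Etv1 were lost there.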

How the data were processed

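Per the labels, 9 pools of neocortical RNA were hybridised in pairs on 18 arrays with 2 dyes. The authors deposited 1 log2 ratio per probe and array (21998 probes). How arrays were scanned and normalized and which dye is the numerator is not given in the sources used here. Cy5 over Cy3 was assumed. The 232 Gapdh control spots were left out, the 1477 ratios at a cap of 100000 were set to missing, and each array was centred on its median. Features needed values on 12 arrays and on 2 arrays of each pool. Pool values came from least squares with a dye term, and limma 3.58.1 (R 4.3.3) then tested region over these values (6 residual and 1.26 prior degrees of freedom), adjusted by Benjamini and Hochberg over 18525 features. The code was tested on simulated data. The number of arrays limits precision. Probe names came from the platform annotation, the probe with values on most arrays stood for a gene, and all 49 gene IDs matched RefSeq. Members, lists and alternatives were chosen with earlier results of these data known. Genes are named by an unadjusted p under 0.05 or as core factors of neurogenesis, and list genes by lowest p, at most 5 per list.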

Additional observations from a re-analysis of the deposited data

Results flagged for a closer look

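Over 33 groups of 6 arrays, from 11 genes in the 3 pairs of regions, a single array stood far from the other 5 in 2 groups, both of Hes5, where chance gives about 5% of groups. In rostral over caudal, with the dye term taken off, array 17 gave 0.64 for Hes5 against -0.09 to 0.14 on the other arrays. In rostral over middle, array 13 gave -1.17 against -0.48 to -0.13 on the others. The first of these arrays carried rostral replicate 3 and caudal replicate 2, and the other middle replicate 2 and rostral replicate 1. Without rostral replicate 1, Hes5 was at -0.20 for rostral against middle (limma unadjusted p = 0.154) and at 0.28 for middle against caudal (limma unadjusted p = 0.0398). Without middle replicate 2, it was at -0.23 for rostral against middle (limma unadjusted p = 0.0862) and at 0.32 for middle against caudal (limma unadjusted p = 0.0285).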

How the results depend on the processing

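Treating the 18 arrays as samples, which counts each pool 4 times, was the only setting in which bHLH genes passed: 7 in rostral against caudal, 2 in rostral against middle, 1 in middle against caudal, 1 in the contrast of the middle with both ends, and 7 in the F test. Under the other settings, including each pool left out in turn (0 to 0), the count was 0 in every comparison. Direct arrays alone gave no value for the last 2 tests. No named difference reversed in sign. Hey1 in rostral against caudal ran from -0.40 to -0.28 over 11 settings and from -0.36 to -0.29 over 9 pools left out, with a highest unadjusted p of 0.00448. Its lowest adjusted p with pools as samples was 0.059, among features on all 18 arrays. Without centring, which moved the median of all features by -0.07, 0.10 and -0.17 in the 3 pairwise comparisons, Hey1 in rostral against middle was at -0.14 (unadjusted p = 0.122) and Hes5 in middle against caudal at 0.17 (unadjusted p = 0.38). The number of bHLH genes with an unadjusted p under 0.05 between the ends was 8, and it was 5 without centring, 13 with arrays as samples and 4 to 7 with a pool left out. It was 0 to 10 in rostral against middle and 2 to 10 in middle against caudal. With the pool number as a replicate block 0 genes passed, and Hey1 was at -0.33 (adjusted p = 0.541). The main fit did not take pool numbers as pairs, and the labels do not say whether they are. Deviations of pools of the same number correlated between -0.43 and -0.06. Such pools shared no array, whereas pools of unlike number from 2 regions did, so these correlations cannot decide the question.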
